A study of Arabidopsis thaliana with 39 samples.

Results

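The bar gene of the T-DNA of plasmid pCSA110 was the source of 1228 small RNA reads (exact Poisson 95% interval 1160 to 1299) in leaves of the Arabidopsis thaliana line SAIL_232. These reads were 38.7% of the 3175 small RNA reads listed on the plasmid. A read belonged to bar when its midpoint lay on the open reading frame, at positions 828 to 1379 of the plus strand of pCSA110 counted from 1, and when its sequence equalled the plasmid at the listed place. Of 1313 reads listed on bar, 85 had a mismatch and were not members. The matching transcript data were 26124 of the 34770 aligned pieces of RNA-seq reads on the plasmid, each with its first position on bar.

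The open reading frame is 552 nt long and encodes 183 amino acids. The bar gene, which was taken from a Streptomyces species, encodes phosphinothricin acetyltransferase, an enzyme that inactivates the herbicide phosphinothricin. On pCSA110 it lies downstream of the mannopine synthase promoter, beside the left border. In plants, Dicer-like enzymes cut double-stranded RNA into small interfering RNAs (siRNAs) of set lengths. The 21 and 22 nt forms are known for cleaving transcripts in the cytoplasm, and the 24 nt form for directing DNA methylation. A Dicer product leaves the enzyme as a duplex whose 3′ ends overhang by 2 nt. Fragments of transcripts made by other nucleases have no set length and carry the strand of the transcript.

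Both libraries came from whole rosette leaves of SAIL_232, a T-DNA insertion line in the Columbia background that carries several pCSA110 insertions. The plants were pools from a segregating seed stock grown at 21 °C with 16 h of light per day, per the labels. The methods of the study give another temperature and day length and place the harvest some weeks after bolting. The RNA for the small RNA library was cut from a gel, which bounds the lengths that could be read. Reads on bar ran to 50 nt, past the upper limit that the methods give for that cut. The number of bar copies was not determined. One library per assay was available, so every interval covers counting error only and no test between plants was possible. The kanamycin resistance gene nptII, on the pROK2 T-DNA of line SALK_059379, was used for comparison, from a leaf small RNA library with the same growth labels.

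The 1228 reads were 17 to 50 nt long and represented 738 distinct reads. None of them matched a second place on the plasmid, and none matched the nuclear chromosomes or organelle genomes of the TAIR10.1 assembly. The authors had already filtered the reads against TAIR10, so the lack of genome matches is no separate result. The density of the 1228 reads was 2225 reads per kb (2102 to 2353), against 378 exact reads per kb over the whole plasmid, bar included. In the siRNA sizes bar did not exceed its neighbour. Reads of 21 to 24 nt numbered 413 on its 552 nt and 486 on the 558 nt from the left border to bar. Reads of 30 nt or longer numbered 412 on bar and 70 on that stretch. The start of the gene was no boundary for the reads, because 141 exact reads spanned its first base. The midpoints of 65 reads fell in the first 10 positions of bar, and those of 53 exact reads in the 10 positions before it. At the other end no exact read had its midpoint in the last 10 positions of bar or in the first 10 after it. No exact read spanned the last base of the stop codon, at position 1379.

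Most antisense reads were 24 nt or shorter, whereas the sense reads ran over a broad range of lengths. Sense reads, which lie on the plus strand like the bar message, numbered 1088 or 88.6% (86.7 to 90.3), and antisense reads numbered 140. Of the antisense reads, 75 were 21 nt long, which is 53.6% (45.0 to 62.0), and 125 were 24 nt or shorter. Of these 75, 21 were a single distinct read, so the 21 nt share rested partly on it. Of the sense reads, 164 were 21 nt long, which is 15.1% (13.0 to 17.3), and 486 were 24 nt or shorter. Sense reads of 30 nt or longer numbered 399, against 13 antisense reads of that length.

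**Figure D1:**
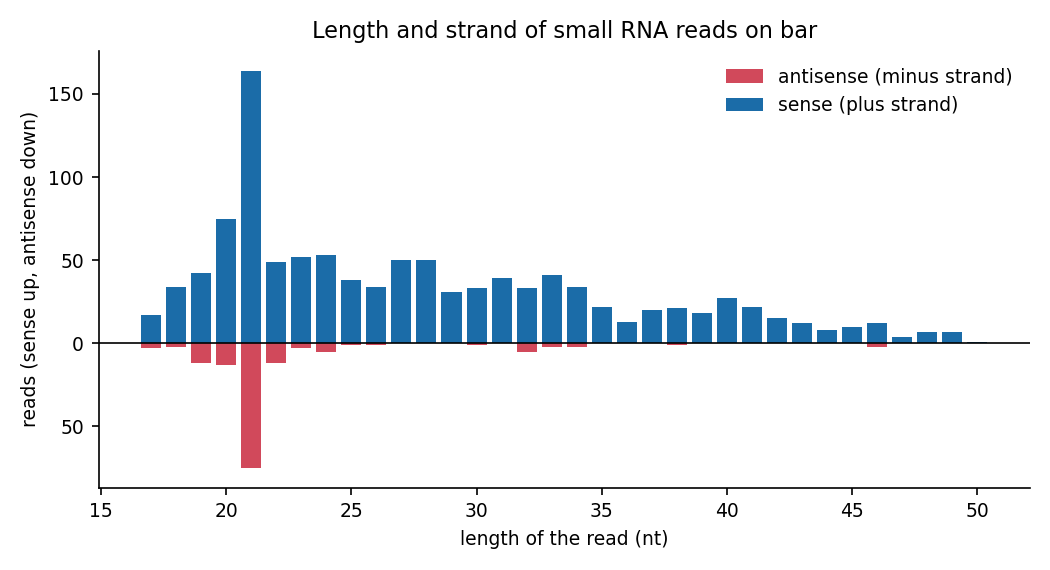
Number of small RNA reads on bar (y axis) by length in nt (x axis), with sense reads drawn upwards and antisense reads downwards. The 21 nt bar is the tallest on both strands, with 164 sense and 75 antisense reads, and the sense reads run on to 50 nt.

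A peak at 21 nt was present on each strand. The sense reads numbered 75 at 20 nt, 164 at 21 nt and 49 at 22 nt. The antisense reads numbered 13 at 20 nt, 75 at 21 nt and 12 at 22 nt. No comparable peak was seen at 24 nt, where 53 sense reads stood beside 52 at 23 nt and 38 at 25 nt. Within the 413 reads of 21 to 24 nt, the 21 nt reads took 57.9% (52.9 to 62.7), the 22 nt reads 14.8% (11.5 to 18.6), the 23 nt reads 13.3% (10.2 to 17.0) and the 24 nt reads 14.0% (10.8 to 17.8). The last 3 sizes had overlapping intervals. When identical reads were counted once, the 21 nt share was 47.9% of 190 distinct reads.

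The strand bias differed between read lengths. Sense reads were 68.6% (62.3 to 74.4) of the 239 reads of 21 nt, 80.3% (68.2 to 89.4) of the 61 reads of 22 nt, 94.5% (84.9 to 98.9) of the 55 reads of 23 nt and 91.4% (81.0 to 97.1) of the 58 reads of 24 nt. They were 96.8% (94.7 to 98.3) of the 412 reads of 30 nt or longer. The 24 nt reads of bar were thus close in strand to its long reads, and the 21 nt interval lay below both. Over distinct reads the sense share was 64.8% (54.1 to 74.6) at 21 nt and 86.7% (69.3 to 96.2) at 24 nt, and these intervals overlapped.

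The stretches on either side of bar had other strand shares in the same library. The stretch from the left border to bar, at positions 270 to 827, holds the mannopine synthase promoter and had 624 exact reads. The stretch from bar to the GUS reporter, at positions 1380 to 5150, had 806. GUS is driven by the pollen promoter LAT52. The paper reports this promoter as the only element of the plasmid highly targeted by siRNAs of the size known for directing DNA methylation. The bounds of the GUS promoter were not determined here. Its reads were therefore not told apart from the other reads of the downstream stretch. Among 24 nt reads the plus strand share was 91.4% on bar, against 41.9% (29.5 to 55.2) on the promoter stretch and 31.7% (25.7 to 38.2) on the downstream stretch. Among 21 nt reads it was 68.6% on bar, against 81.0% (76.5 to 85.1) and 53.8% (44.4 to 63.0). Among reads of 30 nt or longer it was 96.8% on bar, against 64.3% (51.9 to 75.4) and 83.1% (75.3 to 89.2). The intervals for 24 nt and for long reads did not overlap between bar and either neighbour. Over distinct reads the 24 nt share was 86.7% (69.3 to 96.2) on bar, against 48.4% (30.2 to 66.9) on the promoter stretch and 53.9% (42.1 to 65.5) on the downstream stretch, where it thus lay on the other side of 50%. The 21 nt share over distinct reads was 64.8% (54.1 to 74.6) on bar, against 63.5% (51.5 to 74.4) and 59.4% (46.4 to 71.5), and all 3 intervals overlapped. These are single-library values and the differences were not tested.

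**Figure D2:**
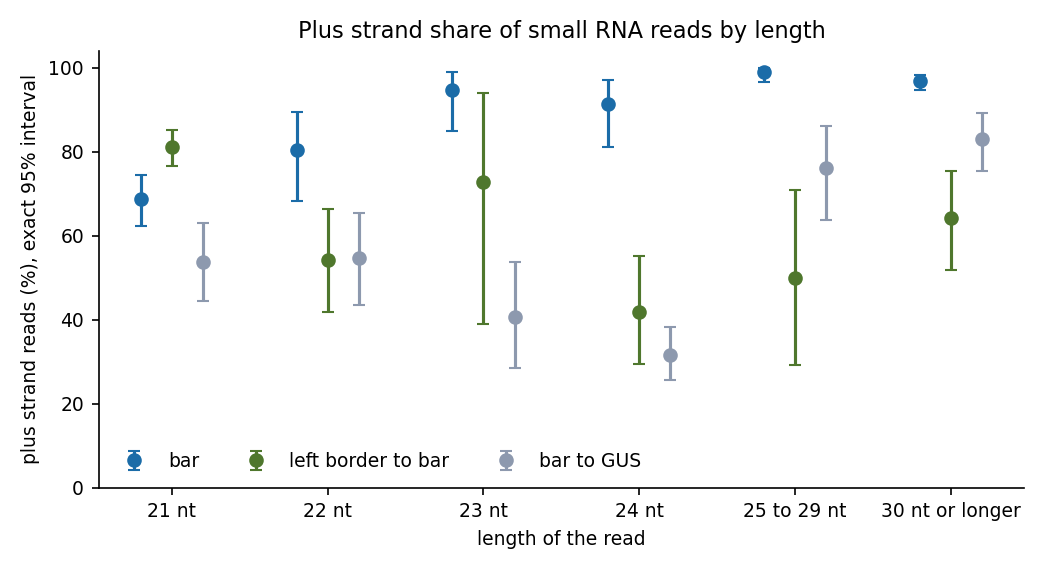
Share of exact small RNA reads on the plus strand in percent (y axis) by read length (x axis) for bar, the stretch from the left border to bar and the stretch from bar to GUS; points are shares and error bars are exact 95% intervals for counting error. On bar the share was 68.6% at 21 nt and 91.4% at 24 nt, while both neighbours were below 50% at 24 nt in these read counts, in which identical reads count each time.

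The size make-up also differed between the resistance genes. On bar the 21 nt reads were 57.9% and the 24 nt reads 14.0% of the reads of 21 to 24 nt, against 29.9% and 26.3% of 3909 such reads on nptII. The 22 nt reads were 14.8% on bar and 38.1% on nptII. Reads of 30 nt or longer numbered 412 of 1228 on bar and 21 of 4109 on nptII. The sense share of the 21 nt reads was 68.6% on bar, against 30.4% (27.8 to 33.1) on nptII, but over distinct reads it was 64.8% (54.1 to 74.6) on bar and 61.4% (52.8 to 69.5) on nptII, with overlapping intervals. The lines differ in plasmid, insertion sites and library, so that the part of the genes themselves cannot be told apart. A high 21 nt share was not particular to bar in the SAIL_232 library. Of the reads of 21 to 24 nt, it was 70.6% (66.3 to 74.6) on the promoter stretch. On the downstream stretch it was 24.1% (20.4 to 28.2). The 24 nt shares there were 12.8% and 45.4%, in that order. Over distinct reads, 74 of 145 were 21 nt long on the promoter stretch, against 91 of 190 on bar. These differences were not tested.

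The 21 nt reads were unevenly spread over the gene, with 65 of the 239 in its first part and the rest in its second. Of the 164 sense reads of 21 nt, 123 had their midpoint in the second part of bar from position 1104 on, which is 75.0% (67.7 to 81.4) for 50% of the length. Over the 59 distinct sense reads, 37 did, or 62.7% (49.1 to 75.0). Of the 75 antisense reads, 51 did, which is 68.0% (56.2 to 78.3), but 21 of these were a single read. Without it 30 of 54 lay there, or 55.6% (41.4 to 69.1), and of the 32 distinct antisense reads 18 did. Of the long sense reads 231 of 399 or 57.9% (52.9 to 62.8) lay in that part.

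For a finer view bar was divided into 11 windows of 50 nt, the last of 52 nt. From the first window to the last, the sense reads of 21 nt numbered 10, 8, 2, 12, 3, 41, 13, 24, 13, 34 and 4. The antisense reads of 21 nt numbered 6, 8, 2, 5, 0, 3, 0, 28, 4, 9 and 10 in the same windows. The fullest window for both strands together, at positions 1178 to 1227, held 52 of the 239 reads or 21.8% (16.7 to 27.5). The windows at 1078 to 1127 and at 1278 to 1327 followed with 44 and 43 reads, and the intervals of the 3 windows overlapped. The emptiest window, at 1028 to 1077, held 3 reads. Sense and antisense reads thus had their highest windows 100 nt apart, the sense reads at 1078 to 1127 with 41 and the antisense reads at 1178 to 1227 with 28. In each of these windows 21 of the reads were a single distinct read, and the distance rested on them.

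A pair of reads stood out, with 42 of the 239 reads or 17.6% between them. The most frequent 21 nt read on the sense strand ran from 1114 to 1134 and was seen 21 times, and the most frequent on the antisense strand ran from 1179 to 1199 and was also seen 21 times. Each was 8.79% of the 21 nt reads. The next 5′ ends were at 1117 with 11 sense reads, at 1201 with 8 sense reads and at 1013 with 7 sense reads. The antisense 5′ end at 1288 also had 7 reads. Of 91 distinct 21 nt reads, 50 were seen once. When identical reads were counted once, the fullest window moved to 1278 to 1327 with 15.4% (8.67 to 24.5) of the distinct reads.

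**Figure D3:**
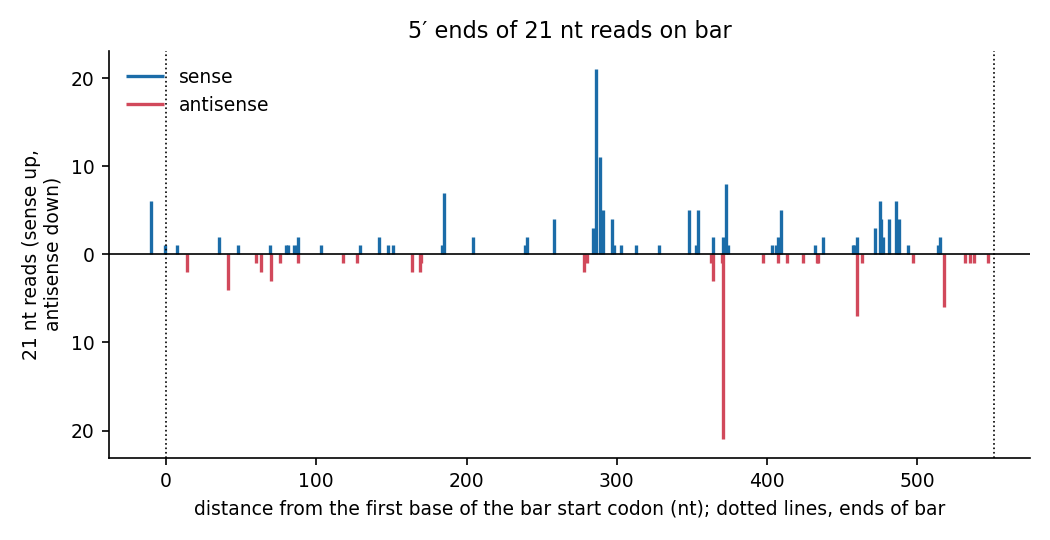
Number of 21 nt reads (y axis, sense up and antisense down) by the position of their 5′ end, as the distance in nt from the first base of the bar start codon (x axis). The sense pile and the antisense pile of 21 reads each stand apart from the other ends, which hold 11 reads or fewer.

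The most frequent reads of most other lengths lay near the sense 21 nt pile. The 5′ end of the pile itself, at 1114, had 24 sense reads of any length, and 21 of them were the pile. The most frequent read of 22 nt ran from 1113 to 1134 and was seen 4 times, that of 24 nt from 1122 to 1145 with 7 reads, that of 15 to 20 nt from 1120 to 1139 with 8 reads and that of 30 nt or longer from 1120 to 1151 with 7 reads. All 4 were sense reads in the neighbourhood of the sense 21 nt pile. The most frequent 23 nt read was the exception, from 817 to 839 across the start codon, with 6 reads. The depth of small RNA reads of all lengths was highest at positions 1131 and 1132, with 224 reads. The sense 21 nt reads with 46, and the sense reads of 30 nt or longer with 70, had their highest depth at the same positions. The 5 most frequent 3′ ends of sense reads of any length were 1151 with 30 reads, 1137, 1139 and 1196 with 29 each and 1134 with 28. The reads that ended at 1134 were 19 to 23 nt long, whereas those that ended at 1137 were 19 to 45 nt long.

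Few 21 nt reads had the partner expected of a duplex with 2 nt overhangs at both 3′ ends. A partner was a 21 nt read of the other strand whose lower end lay 2 nt below that of the sense read. Such a partner was listed for 29 of the 239 reads, or 12.1% (8.28 to 17.0), of which 4 were sense and 25 antisense. These reads formed 4 duplexes. In 1 of them the antisense pile at 1179 to 1199 with 21 reads faced a single sense read at 1181 to 1201. The other duplexes held 1 or 2 reads per strand, at sense starts 979, 1234 and 1342. The sense pile at 1114 to 1134 had no antisense partner. When both piles were left out, the share with a partner was 3.55% (1.44 to 7.18), so the value rested on the antisense pile.

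The overhang offset did not stand out among the 41 offsets from -20 to 20 nt. There were 5 other offsets with more reads, up to 43 at an offset of -20 nt, and the median of the other offsets was 12.5 reads. By distinct reads the overhang offset had 8, against a median of 7.5 and a highest value of 12 at the other offsets. On the promoter stretch the share of 21 nt reads with such a partner was 16.0% (12.3 to 20.4), equal to the median of the other offsets there. On the downstream stretch no such partner was listed for 119 reads, and the median of the other offsets there was also 0%. With 75 antisense reads in 32 distinct forms, a partner that was present in the leaf could be missing from the list at this depth.

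**Figure D4:**
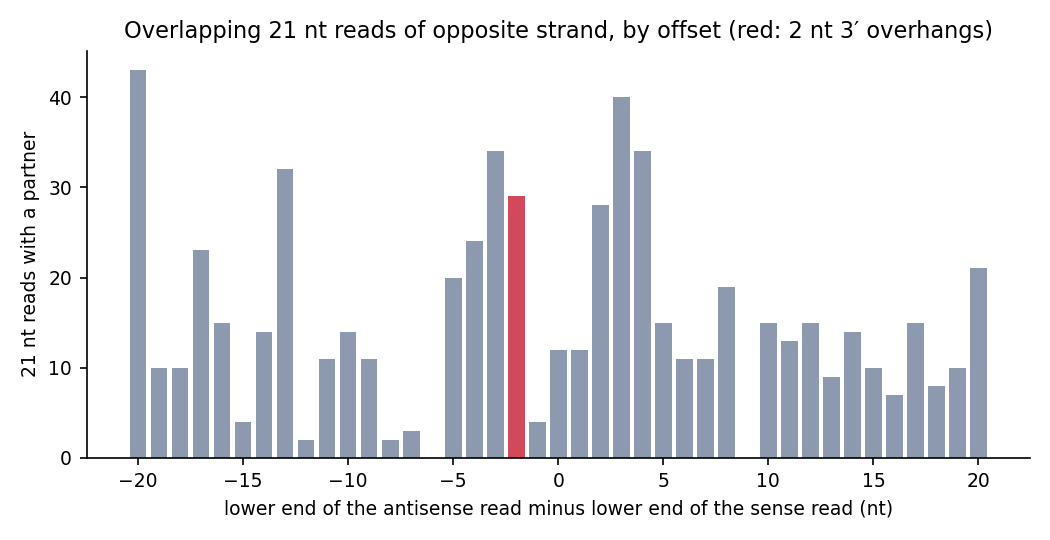
Number of 21 nt reads on bar with a 21 nt read of the other strand (y axis) by the offset in nt of the lower end of the antisense read from that of the sense read (x axis); the red bar is the offset of a duplex with 2 nt 3′ overhangs. That bar stands at 29 reads, below the 43 reads at -20 nt and the 40 reads at 3 nt.

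The 21 nt reads were also counted by register in steps of 21 nt, as is done for phased siRNAs. With the antisense reads shifted by the 2 nt overhang, the fullest of the 21 registers held 45 of the 239 reads or 18.8%, where an even spread gives 4.76%. Of these 45 reads, 21 were the antisense pile. Without that pile the register held 24 of 218 reads, and by distinct reads it held 12 of 91, against up to 10 in the others. The register next in order held 29 reads, 21 of them the sense pile.

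The first base of the reads varied with their length. Argonaute proteins, which bind siRNAs, are known to sort them partly by the 5′ base, AGO1 for uridine and AGO2 for adenosine. Among the 21 nt reads the 5′ base was A in 77, U in 57, C in 55 and G in 50. A or U made up 56.1% (49.5 to 62.5) of the first bases, against 31.8% of the other positions of the same reads. The share was 52.4% (44.5 to 60.3) on the sense strand and 64.0% (52.1 to 74.8) on the antisense strand, where 21 of the 33 reads that began with A were the pile. Over the distinct 21 nt reads it was 48.4% (37.7 to 59.1), against 32.6% of the other positions. Among reads of 30 nt or longer, A or U made up 36.7% (32.0 to 41.5) of first bases, against 32.2% of the other positions, and 184 of 412 began with C. Among 24 nt reads 13 of 58 began with A and 27 with C. The gene itself is 68.3% G or C, with 200 C and 177 G among its 552 bases.

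The long sense reads shared their highest depth with the sense 21 nt reads but were also frequent near the start of bar. From the first window to the last, the sense reads of 30 nt or longer numbered 56, 38, 20, 27, 13, 34, 68, 59, 20, 55 and 9. Their fullest window was at 1128 to 1177, next to the fullest sense 21 nt window, and 94 of them lay in the first 2 windows, which held 18 sense 21 nt reads. Over the 11 windows, Spearman's rho between sense 21 nt reads and sense reads of 30 nt or longer was 0.57, and that between 21 nt reads and the GC content of the window was -0.03. The windows of 1 library share its depth and the copies of the gene, and no p-value is given. The last window leaves out 18 mismatched sense reads of 26 to 46 nt across its end. None of them met the exact match, and only 12 covered position 1367. The others began after it, so their midpoints also lay beyond bar.

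The RNA-seq pieces were nearly all on the minus strand. Of the 26124 pieces, 25769 were listed on the minus strand and 355 on the plus strand, a minus strand share of 98.6% (98.5 to 98.8). Which strand of RNA a minus strand entry stands for is stated in none of the sources, so it was not called sense or antisense. The bar gene takes 7.32% of the plasmid and held 75.1% of its pieces.

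The listed pieces did not all lie where their sequence does. Of the pieces on bar, 12422 were a single base and 24741 had fewer than 10 bases. Only 213 of the 1383 pieces of 10 bases or longer equalled the plasmid at the listed place, and a further 802 equalled it 1 to 17 nt upstream. The pieces were therefore joined to reads where consecutive entries shared a strand and left a gap of no more than 16 bases, up to a summed length of 130 bases. This gave 4657 reads whose first piece lay on bar, of which 4588 were on the minus strand and 4402 had 6 pieces, the highest number in the table for bar. For pieces of 3 bases or longer, 60.0% of the first pieces of a read equalled the plasmid in place, and 1.46% of the later pieces did. Of the joined reads, 1749 equalled the plasmid from their first base on, and 2828 differed from it at no more than 10% of the listed bases. The listed part of these 2828 reads had a median of 14 bases, so it is not the whole read.

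The lower ends of the RNA-seq reads were most frequent in a window 100 nt inside the gene and in the last 2 windows. For pieces the fullest window was at 928 to 977 with 6116 pieces or 23.4%, followed by 1278 to 1327 with 5801 pieces or 22.2%. For joined reads the same windows held 1021 and 1108 of the 4657 reads. The fewest lower ends were in the window at 1178 to 1227, with 262 pieces and 40 joined reads, which was the fullest window for 21 nt small RNA reads. That first rank for 21 nt reads rested on the piles. With identical reads counted once, or without both piles, the fullest 21 nt window was at 1278 to 1327, like that of joined reads. The window at 1178 to 1227 still held 13 distinct 21 nt reads, against 14 at 1278 to 1327. The 5 most frequent first positions of pieces were 963 with 550 pieces, 1327 with 468, 1332 with 438, 1324 with 417 and 968 with 415, all on the minus strand. Those of joined reads were 1361 with 163 reads, 1310 with 134, 947 with 91, 1311 with 84 and 1362 with 82, also on the minus strand.

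Depth gave another order of windows than the ends did. Over the reads that differed from the plasmid at no more than 10% of their bases, the mean depth per window was 28.7, 43.9, 171, 56.7, 15.8, 40.8, 95.5, 218, 203, 188 and 231 reads per base. The window at 1178 to 1227 with few ends had a depth of 218, although only 39 of these reads began in it. The highest depth was 458 reads at positions 1367 and 1368, where 8 exact small RNA reads of any length lay. That position is 13 nt before the first of a pair of substitutions, T1380G, across which small RNA reads could not match exactly, and 21 reads lay there when mismatched ones were included. At position 1131, the peak of the small RNA reads with 224, the RNA-seq depth was 82. Over the windows, Spearman's rho between 21 nt reads and RNA-seq depth was 0.28, and that between 21 nt reads and the lower ends of joined reads was -0.13. Where the RNA-seq peak lay depended on what was counted, because the fullest window was at 1128 to 1177 with 52.6% of the 213 pieces of 10 bases or longer that equalled the plasmid, which is the window of the small RNA depth peak. Because the list breaks off after 6 pieces, the depth of the parts of a read beyond them was not measured.

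**Figure D5:**
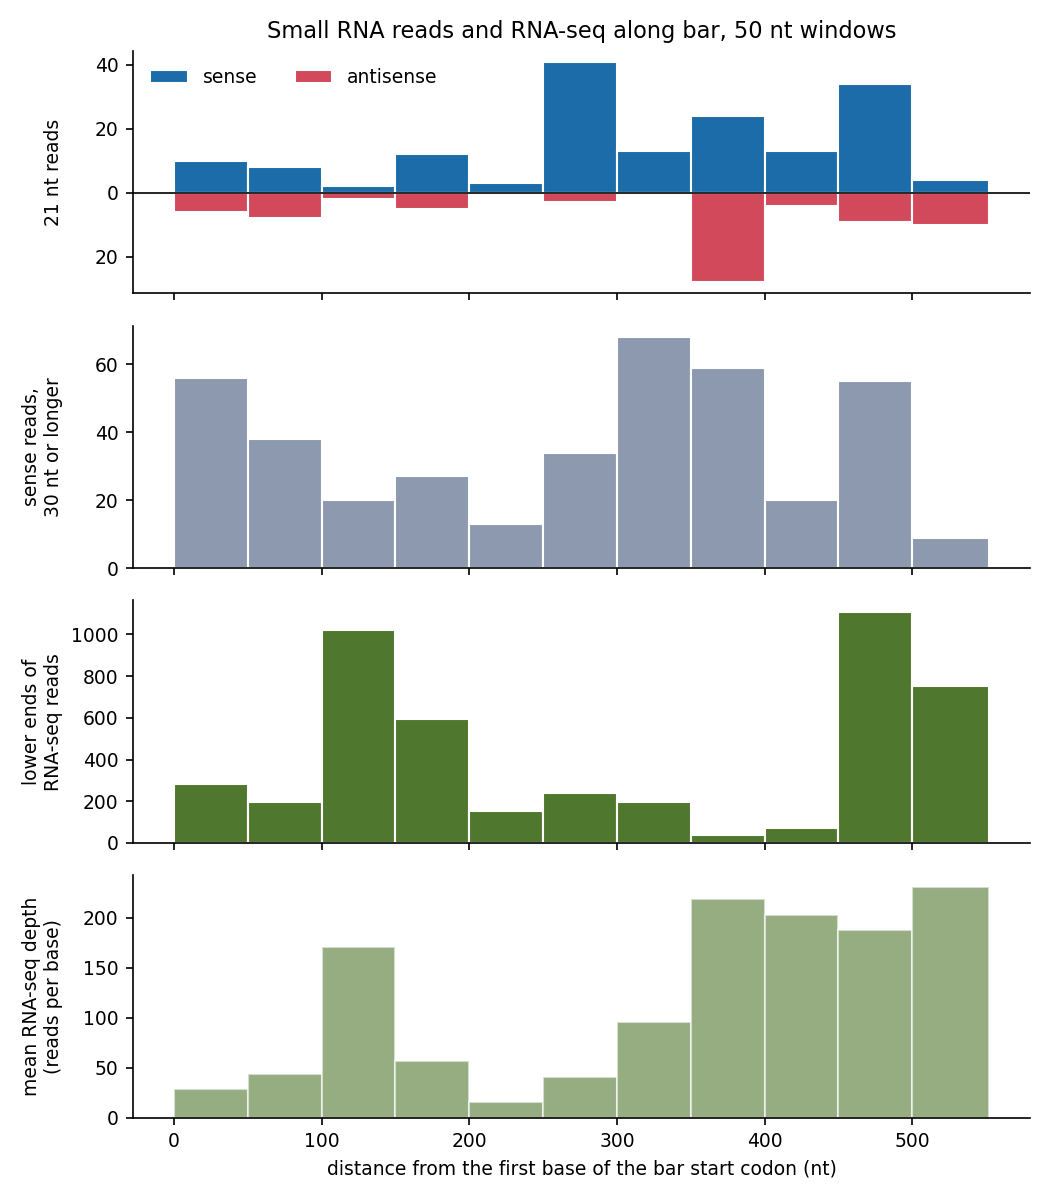
Reads on bar in windows of 50 nt, by distance in nt from the first base of the start codon (x axis): 21 nt reads by strand, sense reads of 30 nt or longer, lower ends of joined RNA-seq reads, and mean RNA-seq depth in reads per base (y axes, from top to bottom). The 21 nt reads were highest in the windows from 250, 350 and 450 nt, and the lower ends of RNA-seq reads in those from 100 and 450 nt.

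Both assays departed from the deposited plasmid sequence at the end of bar. All 18 small RNA reads that spanned the last base of the stop codon had mismatches and were therefore not members. Each of them equalled the plasmid up to the stop codon. Of the joined RNA-seq reads, 325 began on bar and ran at least 6 bases past it, of which 263 equalled the plasmid through the stop codon and none equalled it throughout. With positions counted from 1 on pCSA110, the substitution T1380G was present in 262 of the 263 RNA-seq reads and in 18 of the 18 small RNA reads. The substitution C1381A was present in 262 of the 263 RNA-seq reads and in 17 of the 18 small RNA reads. None of the 18 small RNA reads could thus meet the requirement of an exact match. Those that began after position 1367 would also have been left out by their midpoint, which lay beyond bar.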

How the data were processed

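Small RNA and RNA-seq tables of SAIL_232, and the small RNA table of SALK_059379, were analysed together with the deposited plasmid sequences. The authors trimmed adapters, mapped reads to the plasmids with Bowtie2 and the Geneious aligner and filtered them against TAIR10. The submitters' processing notes name Bowtie2 2.3.0 and Bowtie 0.12.7. The deposited tables list the strand, start and end of each mapped read or piece, without counts or normalization, so entries were counted here. The methods state that no mismatch was allowed, but some listed reads differ from the deposited plasmid. The sequencing depth of the libraries is stated in none of the sources, and no value was scaled to it.

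The bar, GUS and nptII frames were found by translating the plasmids, and the left border by its repeat. Shares have exact Clopper-Pearson and counts exact Poisson 95% intervals (Python 3.11.15, SciPy 1.17.1), for counting error only. PCR reads without molecular identifiers are not independent molecules, and pieces of 1 RNA-seq read are not independent either. Partner search and joining were tested on simulated data, where 300 of 300 split reads were recovered. The simulated pieces all lay on the minus strand, equalled the plasmid and had smaller gaps than the joining allowed. Their recovery therefore does not measure how well the listed pieces were joined. Among 240 simulated 21 nt reads the overhang offset had the most partners, with 118 reads where 80 had been made as duplexes, so that the search also counts chance partners. The named reads were the most frequent of each length class, the 5 most frequent 5′ ends and piece starts, and the fullest and emptiest windows, with ties broken by lower position. Members, element lists and rules were chosen with earlier results of these data known. Alternatives covered the assignment of reads, mismatches, identical reads, the most frequent 5′ end, the partner rule, window layout and the joining, length and placement of pieces. Counts over distinct reads for the compared elements, the parts of bar and the register were added after the data were seen. No bases of the vector are printed beyond single substitutions. The pROK2 RNA-seq, bisulfite and ChIP data were not analysed here.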

Additional observations from a re-analysis of the deposited data

Results flagged for a closer look

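The 18 mismatched small RNA reads across the last base of bar were flagged because they exceed the 3 reads that a count of 0 allows. That was not a test, as T1380G fixed the exact count there at 0. These mismatched reads lie outside the exact-match reads. They were 26 to 46 nt long, all on the sense strand, and 17 of the 18 carried both T1380G and C1381A, as did 261 of the 263 RNA-seq reads that matched through the stop codon, or 99.2% (97.3 to 99.9). The deposited reads and the deposited plasmid sequence thus differ just after the stop codon, and the cause was not tested.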

How the results depend on the processing

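Of 65 alternative values for 10 results, 45 stayed within the main 95% interval or, for a count, within 1.5 times the main value. The sense shares of 21 nt and of long reads and the 24 nt share did so under every alternative tried. With identical reads counted once, bar had 738 reads, the 21 nt share was 47.9% and the fullest 21 nt window held 15.4%. Windows of 25 nt gave 16.3%, by construction of smaller windows. Without both most frequent 5′ ends, an alternative chosen after seeing the data because they tied, 3.55% of 21 nt reads had a partner.

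The RNA-seq count depended on what was counted: 4657 joined reads, 1236 pieces with identical ones counted once, 1383 pieces of at least 10 bases and, chosen after seeing the data, 213 such pieces equal to the plasmid and 2828 joined reads with at most 10% mismatches. The minus strand share was 83.2% with identical pieces counted once, 98.3% for pieces of at least 10 bases, 96.2% for those equal to the plasmid and 97.6% for joined reads with at most 10% mismatches. The share of the fullest window was 14.4% at 828 with identical pieces counted once, 22.6% at 1328 for pieces of at least 10 bases, 52.6% at 1128 for those equal to the plasmid, 25.7% at 1278 for joined reads with at most 10% mismatches, 27.1% at 1303 with windows shifted by 25 nt and 18.2% at 1303 with windows of 25 nt. The place of the RNA-seq peak therefore depends on how pieces are counted. No paired analysis was possible because each assay had 1 library. With 55 to 61 reads each of 22, 23 and 24 nt, differences in their shares were not detectable at this depth.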
